A study of Mus musculus with 2 samples.

Results

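The microRNA (miRNA) families miR-467, miR-669, miR-466 and miR-297 are rodent genes, most of which sit side by side in a single intron. They were taken as all genes of the count tables whose GENCODE M21 symbol starts with Mir297, Mir466, Mir467 or Mir669 followed by a letter, a hyphen or nothing, which gave 81 of the 2202 miRNA genes counted. Of these, 30 belong to miR-669, 28 to miR-466, 17 to miR-467 and 6 to miR-297. The rule used gene names and no measured value, though it was set with earlier results of these data known. Small RNAs were sequenced from hippocampal tissue of female B6CASTF1/J mice aged 2 months, with no treatment and no transgene named. These mice are F1 hybrids of C57BL/6J with a castaneus-derived strain. There is 1 group of 2 libraries, numbered by the labels as biological replicates 1 and 2. They come from separate tissue records under 1 donor record, and the labels do not say whether 2 animals were used, so the spread between them may be in part technical. The labels speak of a layer of the hippocampus and do not say which. In such bulk tissue, fewer cells with a miRNA and less of it per cell cannot be told apart.

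A miRNA gene is transcribed as part of a longer RNA, from which Drosha cuts a hairpin and Dicer cuts a duplex of short strands. One strand is loaded into an Argonaute protein, where bases 2 to 8, the seed, pair with target mRNAs. Most genes of these 4 families lie as a tandem array inside an intron of Sfmbt2, which encodes a Polycomb group protein and is imprinted, with expression from the paternal copy in extraembryonic tissues. The array is known for its abundant miRNAs in placenta and in embryonic stem cells.

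RefSeq sequences on GRCm38.p6 matched 9 of the 81 members by symbol, all of them outside Sfmbt2, and gave 8 mature miRNAs. They are shown because they let a reader see the repeat that runs through the families, and how far members with like names differ in the seed. The seed is in capitals.
miR-466q: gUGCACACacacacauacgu
miR-466i-3p: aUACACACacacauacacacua
miR-467f: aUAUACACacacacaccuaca
miR-467g: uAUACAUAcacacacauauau
miR-466j: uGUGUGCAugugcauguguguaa
miR-466k: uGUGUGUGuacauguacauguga
miR-467h: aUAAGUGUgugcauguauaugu
miR-669n: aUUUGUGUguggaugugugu
The 8 mature miRNAs had 8 different seeds. The first 4 read along the C and A strand of the repeat and the other 4 along the U and G strand. Among the 1738 mature miRNAs of the RefSeq table, 7 of the 8 seeds occurred in no other miRNA. That of miR-467h occurred in 2, itself included. No member inside Sfmbt2 was matched in that table, so a seed shared with one of them could not be seen. Within these 8, members with the same family name did not share a seed: the 4 of miR-466 had 4 seeds and the 3 of miR-467 had 3.

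Among all 81 hairpins, 68 held a run of 8 alternating bases, either U and G (TGTGTGTG or GTGTGTGT in DNA letters) or C and A (ACACACAC or CACACACA), which is 84.0%. The 2 runs are reverse complements, and each was searched on the sense strand of the hairpin. Of the 2121 miRNA genes outside these families, 9.34% held such a run. The U and G run was in 27 of 28 miR-466 hairpins and 3 of 17 miR-467 hairpins. The C and A run was in 16 of 17 miR-467 hairpins and 9 of 28 miR-466 hairpins. None of the 6 miR-297 hairpins held either. The members' hairpins had a median GC content of 36.5%, against 51.4% in miRNA genes outside the families, and a median length of 88.0 bases against 89.0. These are properties of the reference, not of the libraries.

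Replicate 1 held 4517648 sense counts on miRNA genes and replicate 2 held 5979247. Levels are given as CPM, a count divided by this total and multiplied by 1000000. A count of 0 allows up to 3 counts, which is 0.664 CPM in the first library and 0.502 CPM in the second. PCR copies of a molecule are read as separate counts, so these limits and all intervals reflect counting alone. Reads that mapped to several places, 45.9% and 48.4% of all reads, are a separate line of the tables and belong to no gene. This bears on every value below, because these families share long stretches of sequence. As a check of the tissue, all 10 listed brain neuron miRNA genes had counts and summed to 42555 and 47817 CPM, led by Mir132 at 16627 and 24242 CPM. Mir128-1 had 13444 and 11179 CPM, Mir137 8278 and 8274, and Mir138-1 4119 and 3992. The rest of the list was far lower. Mir9-3 had 343 and 650 counts, Mir9-1 22 and 101, and Mir9-2 5 and 12. The list's 3 Mir124a genes, which encode the same neuronal miRNA at 3 places, had 13 and 9, 4 and 0, and 2 and 3 counts. The 11 listed miRNA genes of pluripotent or trophoblast cells, where the Sfmbt2 array is known to be abundant, summed to 1.99 and 1.17 CPM, with 7 of them at 0, Mir290a to Mir295 and Mir367. The list for liver, islet and muscle summed to 365.5 and 333.0 CPM. In it, Mir375 had 245.0 and 267.6 CPM, Mir206 79.0 and 29.4, and Mir122 41.4 and 36.0. Its other genes, Mir1a-1 and Mir133a-1, were at 0.

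The 81 genes collected 7087 counts in replicate 1 and 8345 in replicate 2. Only 14 of them, 17.3%, had a count in either library, against 35.1% of all miRNA genes. The miR-467 family held most, 5074 and 5923 counts, or 71.3% ± 0.438 (SD, n = 2) of the members' counts, from 3 of its 17 genes. The miR-669 family held 2006 and 2417 counts, or 28.6% ± 0.465, from 7 of its 30 genes. The miR-466 family, nearly as large, came to 5 and 3 counts from 2 of its 28 genes, and miR-297 to 2 and 2 counts from 2 of 6. The division between families was thus close to the same in both libraries. Of all counts on miRNA genes, the miR-467 share was 0.112% in replicate 1, with a 95% Wilson interval of 0.109 to 0.115, and 0.0991% in replicate 2, with one of 0.0966 to 0.102. For miR-669 the shares were 0.0444% (0.0425 to 0.0464) and 0.0404% (0.0388 to 0.0421).

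Mir467d (ENSMUSG00000077021.2, chromosome 2, 10507630 to 10507714, plus strand, mm10) was the most abundant member, with 3697 counts in replicate 1 and 4060 in replicate 2. This was 818.3 and 679.0 CPM, a mean of 748.7 ± 98.5 (SD, n = 2), and rank 112 among all 2202 genes. It alone held 52.2% of the members' counts in replicate 1 (95% Wilson interval 51.0 to 53.3) and 48.7% in replicate 2 (47.6 to 49.7). Both libraries of Mir467d lay above both libraries of every other member.

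Mir669c (ENSMUSG00000076118.1, 10509296 to 10509404) had 1434 and 1620 counts, or 317.4 and 270.9 CPM, with a mean of 294.2 ± 32.9 (SD, n = 2). Mir467e (ENSMUSG00000076948.2, 10505721 to 10505807) had 1220 and 1687 counts, or 270.1 and 282.1 CPM, with a mean of 276.1 ± 8.55. These 2 genes changed places between the libraries, and their order is not settled. Per 100 bases of hairpin it was Mir467e that stood higher, at 317.4 CPM against 269.9, while the other tested members kept their order. Reads of small RNAs cover a whole mature strand, so the levels in the rest of the text are not divided by length.

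Mir669o (ENSMUSG00000077086.1, 10514300 to 10514395) had 450 and 498 counts, or 99.6 and 83.3 CPM, with a mean of 91.4 ± 11.5 (SD, n = 2). Mir467c (ENSMUSG00000077049.2, 10473931 to 10474027) had 157 and 176 counts, or 34.8 and 29.4 CPM, with a mean of 32.1 ± 3.76. Mir669o stood clear of its neighbours in the order in each library. Mir467c was above the next gene, Mir669l, in both libraries, but in replicate 2 the 95% Wilson intervals of their shares of the members' counts overlapped, at 1.82% to 2.44% for Mir467c and 1.46% to 2.02% for Mir669l. The 4 highest genes, Mir467d, Mir669c, Mir467e and Mir669o, held 95.1% ± 1.21 of the members' counts, and all 4 lie toward the 3′ end of the array.

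3 further miR-669 genes were low but counted in both libraries. Mir669l had 52 and 143 counts, or 11.5 and 23.9 CPM, and Mir669e had 34 and 80, or 7.53 and 13.4 CPM. Mir669h, the last member at the far end of the array, had 34 and 72 counts, or 7.53 and 12.04 CPM. Mir669l was the highest of the 3 in each library, and in replicate 2 the interval of its share of the members' counts lay above those of Mir669e (0.771% to 1.19%) and Mir669h (0.686% to 1.08%), while in replicate 1 the 3 intervals overlapped. Mir669e and Mir669h did not differ beyond their intervals in either library. No other member passed 3 counts in a library.

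**Figure D1:**
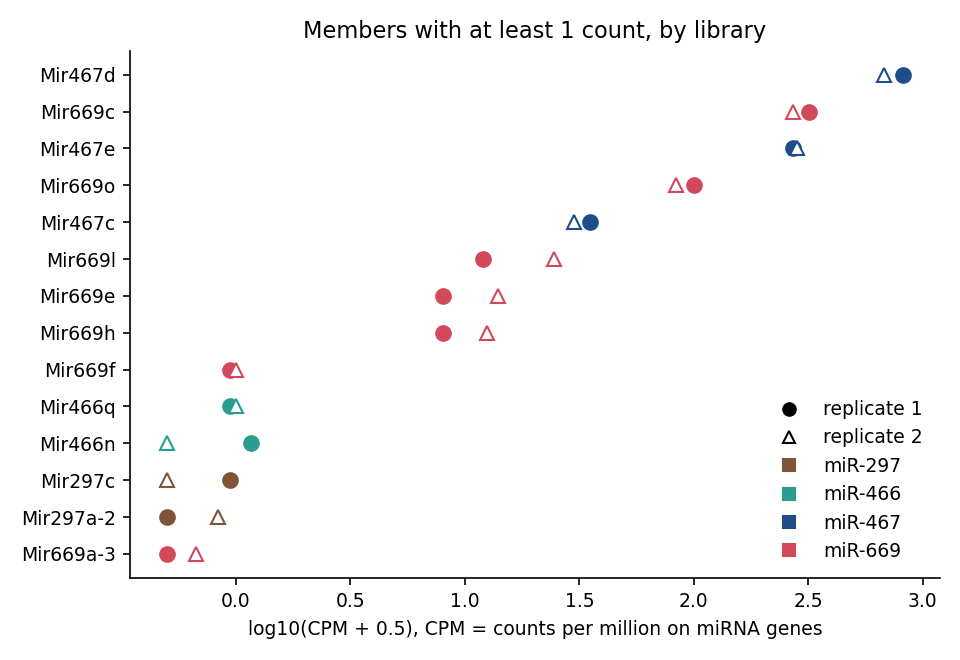
The 14 members with a count, ordered by mean level, with log10(CPM + 0.5) on the horizontal axis, filled circles for replicate 1, open triangles for replicate 2 and colour for the family. Mir467d stands highest in both libraries at 818.3 and 679.0 CPM, 8 genes lie at 7.53 CPM or more in each library, and the 6 below them had at most 3 counts.

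The remaining 6 counted genes rest on at most 3 counts in a library. Mir669f and Mir466q each had 2 counts in replicate 1 and 3 in replicate 2. Mir466n had 3 and 0, Mir297c 2 and 0, Mir297a-2 0 and 2, and Mir669a-3 0 and 1. None of these levels exceeded what a count of 0 allows, so they are given as counts alone. On the antisense strand the 81 genes had 0 counts in both libraries.

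The members' counts came almost wholly from Sfmbt2. Its gene body spans 10370510 to 10595253 on the plus strand of chromosome 2 and holds 71 of the 81 genes, all in 1 intron, number 10 in one transcript and number 11 in another, each of 23 exons. That intron runs from 10461473 to 10523944, and the members in it from 10466663 to 10518279. The 71 genes held 7085 of 7087 counts in replicate 1 and 8342 of 8345 in replicate 2. Of them 13 had a count and 58 had none. The 10 genes elsewhere held the other 2 and 3 counts, all of them on Mir466q, which lies in an intron of the kinase gene Tnik on chromosome 3 (28419943 to 28420018).

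Along the intron the counted genes fell into a stretch at each end. From the 5′ end, Mir669f, Mir669e, Mir669l, Mir297a-2, Mir467c and Mir669a-3 had counts, and Mir467c was the highest of them at a mean of 32.1 CPM. Then came 36 members in a row, from Mir669k to Mir669a-12 over 28578 bases, without a single count in either library. Mir467e, the next member, opened the second stretch, which went on through Mir467d, Mir297c, Mir669c, Mir466n and Mir669o to Mir669h. The stretch with the highest counts lay at the 3′ end. Zeros were mixed in at both ends, as with Mir466p between Mir467e and Mir467d.

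**Figure D2:**
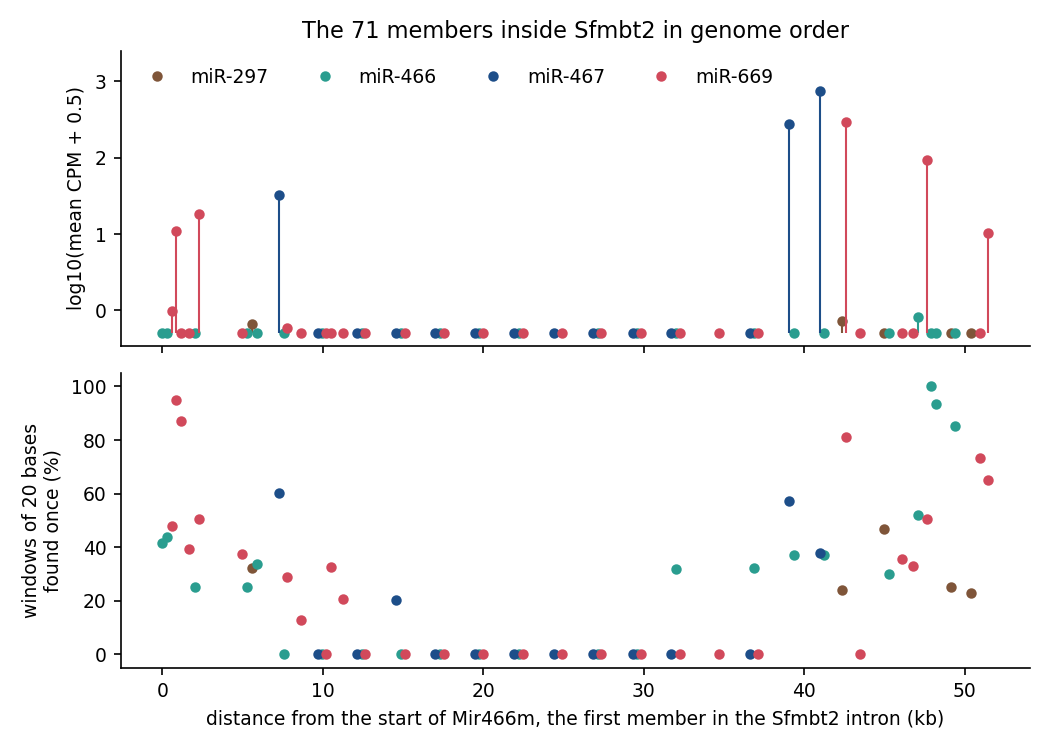
The 71 members inside Sfmbt2 by distance in kb from the start of Mir466m, the first of them, coloured by family, with log10(mean CPM + 0.5) in the upper panel and the percent of each hairpin's windows of 20 bases that occur once among all annotated miRNA hairpins in the lower panel. The run of 36 members without a count covers the middle of the array, where most hairpins have 0% of their windows found once.

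The uncounted middle holds many copies, in which a miR-467, a miR-466 and a miR-669 hairpin mostly follow each other in turn. The starts of successive miR-467 hairpins, with Gm25022 counted in because its hairpin is identical to that of Mir467a-2, lay a median of 2450 bases apart over 14 spacings, from 1909 to 2470. The shortest spacing was the last, between Mir467e and Mir467d. Across the members, 26 had a hairpin identical over its whole length to that of another miRNA gene, in 8 sets. The largest set was 9 hairpins of 87 bases, Mir669a-4 to Mir669a-12, and the next was 6 of the Mir467a genes with Gm25022, at 83 bases. All 8 sets had 0 counts in both libraries.

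To see where sequence alone would let a read be placed, each hairpin was cut into overlapping windows of 20 bases and each window was looked up in all 2202 annotated hairpins on both strands. A read from a window that occurs in several hairpins fits several places. In the 81 members a median of 28.9% of a hairpin's windows occurred once, against 96.7% over all miRNA genes. In 32 members no window did, and none of these 32 had a count. All 14 members with a count had such windows, a median of 51.3% of their hairpin, from 24.1% for Mir297c to 95 of 100 windows for Mir669e. Of all miRNA genes, 310 of the 338 without such a window had no count either. Among the 774 genes with a count, 28 had no such window. Of the 36 members in the uncounted middle, 6 had any, Mir669k, Mir669g, Mir669j, Mir467b, Mir466b-2 and Mir466b-3, at 13.0% to 32.7% of their windows. The lookup covered annotated hairpins only, and copies elsewhere in the genome were not analysed here.

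Windows found once among the annotated hairpins did not go with counts in every case. They were taken over the whole hairpin, not over the mature strands alone. No mature sequence was matched for members inside Sfmbt2. Whether their windows found once lie in a mature strand was therefore not tested. Of the 67 members without a count, 35 had at least 1 window found once, against 1118 of 1428 uncounted genes over all miRNA genes. Mir466g, at the 3′ end of the array, had all 61 of its windows found once and 0 counts in both libraries, and Mir466h had 93.5% and 0 counts. Mir669b at the 5′ end, between Mir669e and Mir669l, had 87.2% and 0 counts. In the miR-466 family 17 of the 26 uncounted genes held such a window, in miR-467 4 of 14, in miR-669 10 of 23 and in miR-297 4 of 4. The zeros of Mir466g, Mir466h and Mir669b allow up to 0.664 CPM in replicate 1 and 0.502 CPM in replicate 2. This limit covers reads given to 1 gene and not reads that mapped to several places.

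**Figure D3:**
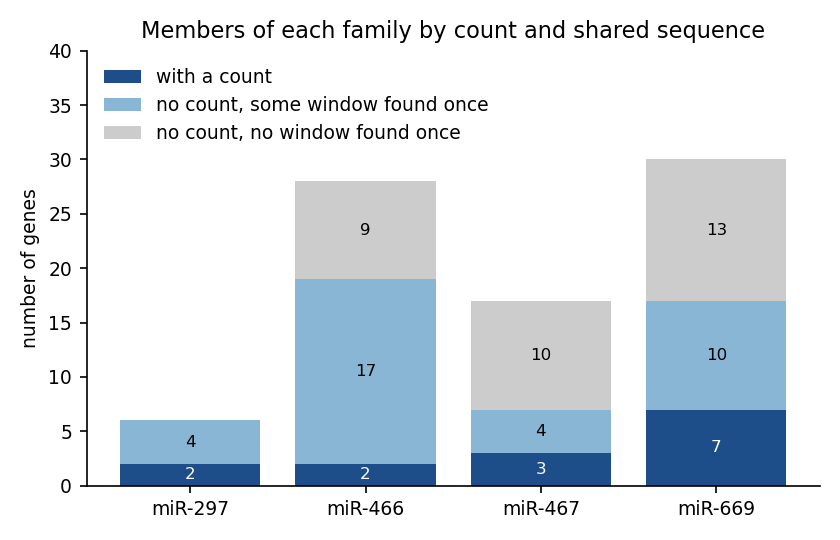
Number of genes in each family, split into those with a count in either library, those with no count but at least 1 window of 20 bases found once, and those with neither. The miR-467 family has 3, 4 and 10 genes in these classes and the miR-466 family 2, 17 and 9.

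The counted genes still shared long stretches with others. Mir467d shared 60 bases of its 85 with each of 10 other genes, Gm25022 among them, and 37.9% of its windows occurred once. Mir467e shared 48 bases with Mir467c, and Mir467d shared 34 with each of these. Mir669c shared 36 bases with Mir669a-3 and had 81.1% of its windows found once, and Mir669o shared 38 bases with 12 genes. The longest stretch that Mir669e shared was 24 bases. A high share of such windows did not go with a high level: Mir669e stood at a mean of 10.5 CPM and Mir467d at 748.7. Reads that fit several hairpins could be absent from these counts or given to another copy, so levels and their order are uncertain for genes that share sequence. How far this sets them was not tested.

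The 10 members outside Sfmbt2 had nearly no counts. All 10 had windows found once, a median of 70.0% of the hairpin against 22.8% inside Sfmbt2, and 7 of the 8 mature miRNAs shown above were found in no hairpin but their own. The mature miR-467h was found in 3 hairpins. Mir466q was the 1 gene with counts. Mir466k and Mir669n on chromosome 3, Mir467g on 5, Mir297-1 on 7, Mir467h on 9, Mir466j on 10, Mir467f on 11, and Mir466i and Mir466f-4 on 13 had 0 counts in both libraries. These 9 lie in no annotated gene on their own strand.

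A further 48 miRNA genes, all with provisional Gm symbols, lie in Sfmbt2 on the same strand, and 44 of them had no count. Gm22072, at the 5′ end ahead of Mir466m, had 5 and 4 counts. Gm22239, between Mir669a-2 and Mir297b, had 0 and 5, Gm26491 had 1 and 0, and Gm26398 had 0 and 1. Together they held 6 and 10 counts, beside 7085 and 8342 on the members in the gene. The 22 of them without any window found once had no count.

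The 2 libraries were then set against each other for the members with at least 10 counts in both, 8 of the 420 genes tested in the whole table. The test was Fisher's exact test, two-sided, of a gene's count in the total of its library, with Benjamini-Hochberg adjustment over the 420 genes and a threshold of 0.05. It compares these libraries and not any condition. Ratios are on the log2(CPM + 0.5) scale. The members split evenly: 3 were higher in replicate 2, 3 were lower and 2 did not pass. Over all tested genes 27.1% were higher and 29.8% lower, so 3 of 8 in each direction is near the background. By level the members divided differently. At a mean of 5 to 50 CPM, 3 of 4 members were higher and 0 lower, against 22 higher and 21 lower of 111 other genes, with median log2 ratios of 0.72 and -0.09. At 50 to 1000 CPM, 0 of 4 members were higher and 3 lower, against 48 higher and 49 lower of 139 other genes, with medians of -0.24 and -0.03. These are counts over 4 genes each, and their difference from other genes was not tested. The median log2 ratio of replicate 2 over replicate 1 was -0.08 in the 8 members and -0.07 over all 420 genes, and the median size of the difference was 1.20-fold and 1.23-fold.

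The 3 higher genes were the 3 least abundant tested, all of miR-669. Mir669l was 2.03-fold higher in replicate 2, a log2 ratio of 1.02 (95% exact binomial interval 0.59 to 1.54, adjusted p = 7.8e-06 by Fisher's exact test). Mir669e was higher by a log2 ratio of 0.79 (0.23 to 1.45, adjusted p = 0.00885 by the same exact test). Mir669h was higher by 0.64 (0.07 to 1.31), with an adjusted p of 0.0427 by the exact test that became 0.0714 with all counted genes tested and 0.0591 with the deeper library thinned, in a range of 0.0263 to 0.0714. Mir669l and Mir669e lie at the 5′ end of the array and Mir669h at the 3′ end.

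The 3 lower genes were among the most abundant. Mir467d had a log2 ratio of -0.27 (95% exact binomial interval -0.33 to -0.20, adjusted p = 8.76e-16 by Fisher's exact test) and Mir669c one of -0.23 (-0.33 to -0.12, adjusted p = 3.32e-05). Mir669o stood at -0.26 (-0.44 to -0.07, adjusted p = 0.0126 by the exact test), and it did not pass with TMM factors, where its adjusted p was 0.0666 in a range of 0.00917 to 0.0666. Mir467c, at -0.24 (-0.56 to 0.08), did not pass, with an adjusted p of 0.206 by the exact test. These 4 genes had like ratios on very different counts: Mir467d had 23.5 and 23.1 times the counts of Mir467c in replicates 1 and 2, and Mir669c had 3.19 and 3.25 times those of Mir669o.

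For Mir467e the log2 ratio was 0.06 (95% exact binomial interval -0.04 to 0.17), with an adjusted p of 0.340 by Fisher's exact test, and of the alternatives run it passed as higher only with TMM factors (adjusted p = 0.0350, in a range of 0.0350 to 0.468). Mir467d had 3.03 times the counts of Mir467e in replicate 1 and 2.41 times in replicate 2. The share of the members' counts on Mir467e was 17.2% (95% Wilson interval 16.4 to 18.1) and 20.2% (19.4 to 21.1), while Mir669c, 20.2% and 19.4%, had overlapping intervals.

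**Figure D4:**
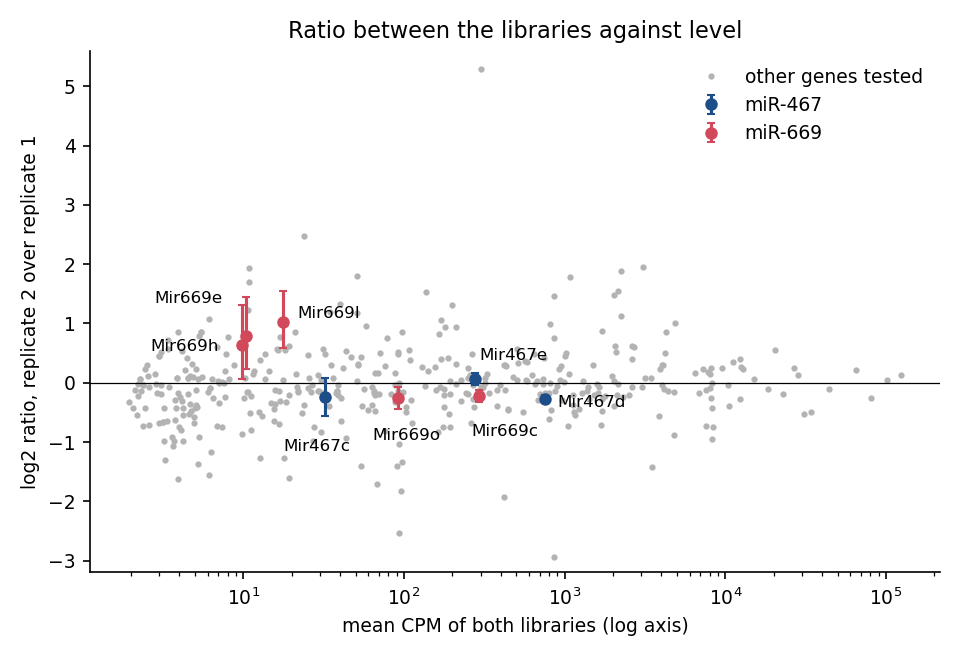
Log2 ratio of replicate 2 over replicate 1 against mean CPM on a log axis for the 420 genes tested, with the 8 members in colour and bars for the 95% exact binomial interval. The 3 low miR-669 genes lie above 0, Mir467e near 0 and the other 4 between -0.27 and -0.23.

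Summed over all 81 genes, the families were lower in replicate 2 by a log2 ratio of -0.17 (95% exact binomial interval -0.21 to -0.12). Scaling by TMM gave -0.105, and the size factors of DESeq2 gave -0.13. Without Mir467d the sum was 3390 and 4285 counts, a log2 ratio of -0.07 (-0.1317 to -0.0010).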

How the data were processed

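The deposited tables, 1 per library, hold whole-number read counts per miRNA gene on mm10 with GENCODE M21, not normalized and not pooled, per the deposited notes. Aligner, counter and adapter trimming: not given in the sources used here. The tables do not name their columns. From the values, the third was taken as the sense strand and used throughout. The 4 lines naming no gene stayed out of the totals, among them unmapped reads (11.8% and 11.2% of reads in replicates 1 and 2), reads at several places (45.9% and 48.4%) and reads in no gene (3.60% and 3.69%). Counts per gene do not separate the arms of a hairpin. How reads from the castaneus-derived alleles were placed on mm10 was not tested.

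There is 1 group, so no model of conditions was fitted. Fisher's exact test (scipy 1.17.1), with Benjamini-Hochberg adjustment, was run on every gene that reached 10 counts in each library, after a check on simulated counts. That check used Poisson counting error only, so it does not cover other spread between the libraries. Ratios are on the log2(CPM + 0.5) scale with exact binomial intervals of the 2 counts, and ratios of sums carry no pseudocount. TMM (edgeR 4.0.16) and DESeq2 1.42.0 size factors were alternatives, with an exact binomial test at the scaled totals. Hairpins came from the GENCODE M21 transcripts and mature miRNAs from RefSeq. Windows were looked up in annotated hairpins, as no genome sequence was used here.

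The members and lists were chosen with earlier results of these data known. Every member with a count is named, and the 5 highest are given in full. Of the other genes in Sfmbt2, the rule named all 48, and only those with a count and Gm25022, which had none, are named here. Members without a count were named after their values were seen, as were Gm25022 and the ratios of the 3 low miR-669 genes.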

Additional observations from a re-analysis of the deposited data

How the results depend on the processing

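The 81 genes made up 0.148% of counts on miRNA genes (0.140% to 0.157% when a replicate was left out). The share was 0.1605% in the column without regard to strand, 0.0560% of all reads in the tables, and 0.169% without the most abundant gene, as the denominators imply. Members with a count numbered 14 (12 without either replicate), and 8 when 10 counts in either library were asked for. The share inside Sfmbt2 was 99.97% (99.96% to 99.97% when a replicate was left out). The 3 higher members became 0 at a minimum of 100 counts in both libraries, where only 5 members could be tested. Of 32 values of single genes under another scaling, the other column or thinning, 29 kept their direction and side of the threshold, 2 no longer passed (Mir669o, Mir669h), 1 passed anew (Mir467e) and 0 reversed. Another minimum changes only the adjustment, and 1 of 13 such values (Mir669h) no longer passed. Other pseudocounts leave the test as it is, and their 16 values kept their direction. Windows of 18 or 22 bases left 49 members with a window found once, as did 20. Depth limits what can be said of members with 3 counts or fewer. For the 32 without a window found once, shared sequence limits it as well. This holds in part for members with only some windows found once, such as Mir669k with 14 of 108. Copies outside the annotated hairpins were not analysed, so a limit from them was not tested. No paired analysis was possible because there is 1 group.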
